A study of Homo sapiens with 6 samples.

Results

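The regions described here are the long stretches of the human genome in which neither lamin B1 nor LC3 formed a broad domain. They were found by joining the domains of all 4 deposited lists, 2 replicates for each protein, into a single set and keeping every stretch of at least 1 Mb between neighbouring joined domains on a chromosome. This gave 312 long domain-free stretches out of 545 gaps of any length between 568 joined domains. Because the lists themselves chose the stretches, their number, length, position and flanks are given as a description with no test. Statements that rest on lists which did not take part in the choice are marked as such.

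Lamin B1 is a filament protein of the nuclear lamina, the meshwork under the inner nuclear membrane. The chromatin that touches this meshwork forms lamina-associated domains, which are mostly gene-poor, replicate late and carry repressive histone marks. The sequence between them, often called inter-lamina-associated, is richer in active genes and tends to lie deeper in the nucleus. LC3 is a small ubiquitin-like protein that is attached to lipid on autophagosome membranes and binds cargo and cargo receptors there, and a nuclear pool can meet lamin B1 at the lamina. A stretch with neither protein is sequence in which the domain caller placed no broad domain of either.

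The measurements were made by chromatin immunoprecipitation and sequencing in untreated IMR90 cells, a line of human lung fibroblasts, grown in 3% oxygen. The series held 6 samples: 2 with an antibody against lamin B1, 2 with an antibody against LC3 and 2 of input chromatin. All 6 shared the cell line, the growth conditions and the absence of treatment, so there is no second state of the cells to compare with. The labels number the replicates but do not say whether they came from separate cultures, so the spread between them may be technical. Read depth is unknown, because each list gives only the chromosome, start and end of its domains. All positions are in GRCh37/hg19 and are counted from 1. Genes inside the stretches were not analysed here.

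The long stretches added up to 978.0 Mb, or 34.4% of the 2839 Mb between the first and the last joined domain of the 23 chromosomes. Joined domains took up 1742 Mb (61.3%), and the 233 gaps under 1 Mb only 119 Mb (4.21%). Most stretches were short members of this set: the median was 2.13 Mb, the middle 50% ran from 1.36 to 3.49 Mb, and 146 of 312 (46.8%) were under 2 Mb. Length was concentrated in few of them. The 14 stretches of at least 10 Mb were 4.49% of the number and 23.03% of the length, and the 62 longest held 50% of it. When the joined set was built from the replicate 1 lists alone it gave 320 stretches over 1036 Mb, and from the replicate 2 lists alone 314 stretches over 1012 Mb (mean 317 ± 4.24 stretches and 1024 ± 16.9 Mb, SD, n = 2 pairs of lists). The pairs differ from the full set because fewer lists leave more sequence without a domain.

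**Figure D1:**
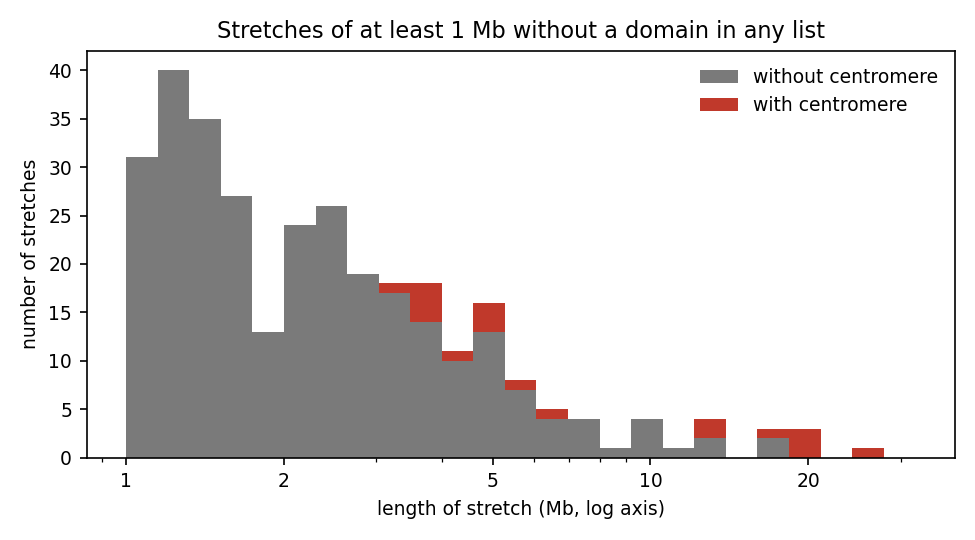
Number of domain-free stretches (vertical axis) by length in Mb (log axis), with stretches that contain a centromere stacked in red on the others in grey. The 146 stretches under 2 Mb form the left side, and 7 of the 14 stretches of at least 10 Mb contain a centromere.

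The threshold of 1 Mb separated gaps of nearly the same length. The 5 shortest members lay on chromosomes 5, 11, 1, 15 and 7 and measured 1.002 to 1.017 Mb. The 5 longest gaps that were left out lay on chromosomes X, 18, 1, 18 and 7 and measured 0.954 to 0.975 Mb.

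The longest stretch without a centromere was on the long arm of chromosome 11 from 60498001 to 78354000. It measured 17.9 Mb in the joined set, and 17.9 Mb in lamin B1 replicate 1, 17.9 Mb in lamin B1 replicate 2 and 19.1 Mb in each LC3 list. By the rule each list leaves every member free. Around this one the lamin B1 lists left at most 42 kb more at either end, and the LC3 lists left a further 1.28 Mb free at its left end. The next was on the long arm of chromosome 17 from 33252001 to 49560000, where the 4 lists left 16.3, 16.3, 16.4 and 16.4 Mb free in the same order. Its ends were set within 105 kb by all 4 lists. The third was the distal part of the long arm of chromosome 9 from 123275001 to 137095000 (13.8 Mb). It was bounded by LC3 domains, with the lamin B1 domains set back by 182 and 171 kb on the left and by 110 and 745 kb on the right. LC3 replicate 2 had no domain to the right of it.

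Next in length was another stretch on chromosome 17, 13.4 Mb long and located at 54705001 to 68154000. Chromosome 22 then held 11.7 Mb at 35508001 to 47205000. It was followed by 10.5 Mb of chromosome 19 at 32598001 to 43115000, and by 10.4 Mb on the short arm of chromosome 1 at 19218001 to 29636000. On chromosome 22 the lamin B1 lists left 11.7 and 12.1 Mb free, LC3 replicate 1 left 19 Mb free, and LC3 replicate 2 had no domain to close the stretch on the right. On chromosome 19 each end rested on a single list. The left end was set by lamin B1 replicate 1, with lamin B1 replicate 2 set back by 1046 kb and LC3 replicate 1 by 368 kb. LC3 replicate 2 had no domain on that side. The right end was set by LC3 replicate 1, because the lamin B1 lists and LC3 replicate 2 had no domain beyond it. The last of the 10 longest were all on short arms. They measured 9.84 Mb on chromosome 16 (10128001 to 19968000), 9.46 Mb on chromosome 9 (32356001 to 41820000) and 8.98 Mb on chromosome 10 (11396001 to 20373000). These 10 stretches together made up 122 Mb, or 12.5% of all long-stretch length.

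The stretch on chromosome 10 shows how the proteins divided the same sequence differently. In both LC3 lists it was part of a much longer empty region of 32.7 Mb (replicate 1) and 32.8 Mb (replicate 2). In both lamin B1 lists 3 domains lay between the 4 members that fell in that region. These were the 8.98 Mb named above, 2.48 Mb from 21321001 to 23799000, 1.07 Mb from 24474001 to 25548000, and 16.7 Mb from 26673001 to 43338000, which holds the centromere. A further domain of 0.294 Mb, also inside the LC3-free region and in lamin B1 replicate 1 alone, closed the last of them on the right. In lamin B1 replicates 1 and 2 the pieces measured 8.98 and 9.14 Mb, 2.48 and 2.60 Mb, 1.07 and 1.08 Mb, and 16.7 and 17.7 Mb. The right end of the last piece lay 878 kb from the nearest domain of lamin B1 replicate 2. The whole run of 6 stretches, from 2931001 to 43338000, was 83.1% free of both proteins.

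Centromeres lay inside 18 of the 312 stretches. In hg19 the centromere of each chromosome is a placeholder of unread bases, and on chromosomes 1, 9 and 16 a placeholder for heterochromatin follows it, so reads cannot align there and no list can place a domain. None of the 4 lists had a base of a domain inside these placeholders. The 18 stretches covered 180 Mb, which was 18.4% of all long-stretch length, but only 85.3 Mb of it lay outside the placeholders. On chromosomes 3, 6, 8, 12 and X less than 1 Mb remained (0.587, 0.5, 0.297, 0.753 and 0.732 Mb), so these 5 would not be members if the placeholder were not counted. The longest stretch of all, 25.7 Mb on chromosome 1 from 120666001 to 146380000, held 4.71 Mb outside the placeholders. The 20.8 Mb stretch on chromosome 9 held 2.76 Mb, and the 13.6 Mb stretch on chromosome 16 held 2.56 Mb. Counted without placeholders, the set became 307 stretches and 880.2 Mb.

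4 centromeric stretches remained long without the placeholder. On chromosome 7, from 55270001 to 76281000, 18.0 of 21.0 Mb lay outside the placeholder, 15.2 Mb of it on the long-arm side. On chromosome 17, from 10461001 to 31335000, it was 17.9 of 20.9 Mb, with 11.8 Mb on the short-arm side and 6.07 Mb on the long-arm side. The other two were chromosome 10 (13.7 Mb, mostly short arm) and chromosome 20 from 25130001 to 37728000 (9.60 Mb, mostly long arm). On chromosome 20 all 4 lists gave the stretch, at 12.7, 12.7, 12.6 and 12.7 Mb for lamin B1 replicates 1 and 2 and LC3 replicates 1 and 2.

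Domains often came close to a centromere. Of the 36 sides of these 18 stretches, 15 had a domain within 500 kb of the placeholder, and the closest was 25.9 kb away on the long-arm side of chromosome 4. On the other 5 chromosomes, 13, 14, 15, 19 and 22, the centromere lay before the first domain and so belonged to no stretch. There the first domain began 20, 191, 85, 434 and 50 kb beyond the placeholder. Chromosome 19 therefore had no domain of either protein on its whole short arm, and its first domain started 28.1 Mb from the start of the chromosome. On chromosomes 17 and 16 the first domain started at 10.3 and 7.29 Mb. Such stretches at the tips have a domain on only a single side and are not counted here.

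The share of a chromosome's span, from its first to its last joined domain, that lay in long stretches ranged from 16.7% to 84.6%. On chromosome 17, 56.9 of 67.2 Mb of span (84.6%) lay in 5 stretches, and on chromosome 22, 26.9 Mb (79.1%) in 4. Chromosomes 19 (66.8%) and 16 (66.7%) followed. On chromosome 19 the span was only 15.7 Mb, and its share was a single stretch that the replicate 2 lists did not give. Chromosomes 17, 22, 19 and 16 are among those with the most genes per length. The lowest shares were on chromosomes 4 (16.7%), 18 (19.02%), 5 (19.99%) and 3 (20.1%), of which 4 and 18 are known as gene-poor. No gene counts were used here, so a link between gene density and share over all chromosomes was not tested. By number, chromosomes 1, 2 and 6 led with 30, 29 and 20 stretches, while chromosome 19 had 1 and chromosomes 21 and 22 had 4 each. By length, chromosomes 1, 2 and 9 led with 113, 75.9 and 70.0 Mb, and chromosomes 19, 21 and 18 were last with 10.5, 13.4 and 14.6 Mb. Placeholders are counted in these lengths and in the shares. The centromeric stretches of chromosomes 9, 17 and 16 (20.8, 20.9 and 13.6 Mb) held 2.76, 17.9 and 2.56 Mb outside them. Chromosome 9 is therefore ahead of chromosome 17 (56.9 Mb) only with placeholders counted. Of the stretches without a centromere, 204 (537.6 Mb) were on long arms and 90 (260.2 Mb) on short arms.

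**Figure D2:**
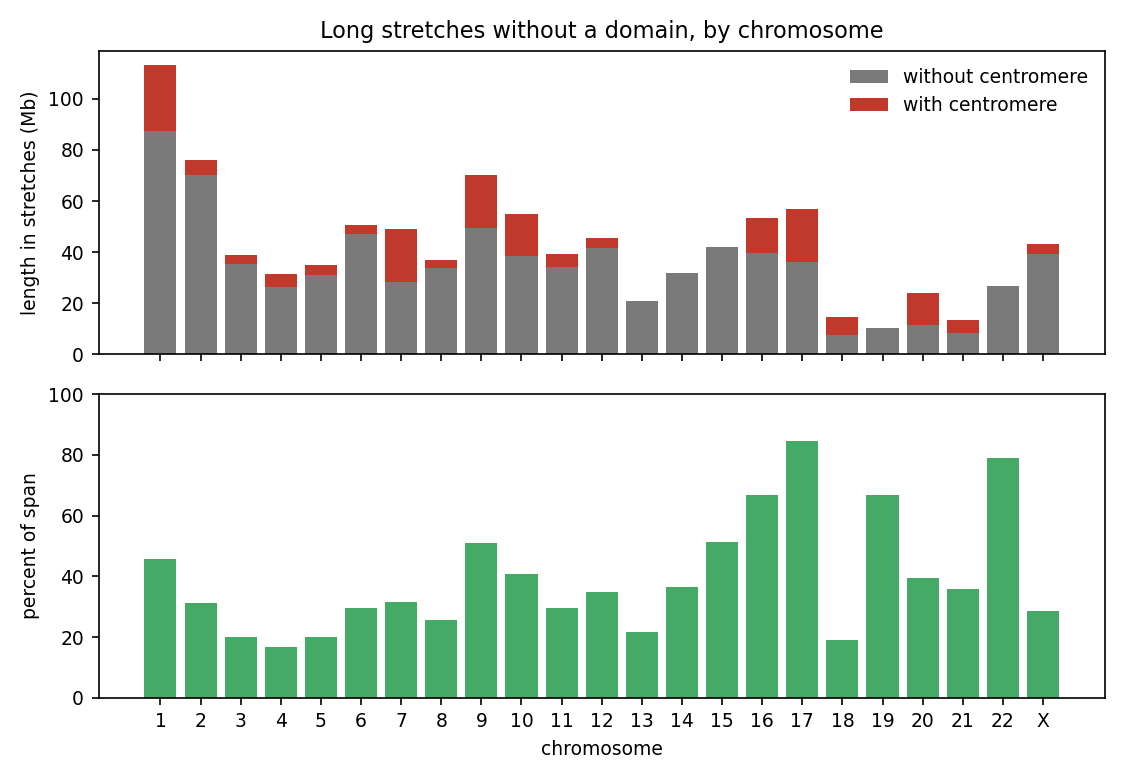
Length in long domain-free stretches in Mb (top, bars split into stretches with a centromere in red and without in grey) and the percent of each chromosome's span that they take up (bottom). Chromosomes 17, 22, 19 and 16 exceed 66% in the lower plot, although chromosome 1 holds the most length. Centromere and heterochromatin placeholders are counted in both plots.

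The 2 pairs of lists gave similar totals on most chromosomes, but not on 17 and 19. Similar totals do not mean that the same sequence was free, and that share is given by chromosome further below. On chromosome 17 the replicate 1 lists gave 5 stretches over 58.3 Mb and the replicate 2 lists 3 over 31.1 Mb. The difference is mainly the centromeric stretch, whose left end rested on a single domain of 0.168 Mb that is in lamin B1 replicate 1 alone. Without that domain the same sequence would be a tip and not a member. On chromosome 19 the replicate 1 lists gave 10.5 Mb in 1 stretch and the replicate 2 lists gave 0. On chromosome X the lists themselves differed: single-list stretches of at least 1 Mb added up to 54.6 and 52.6 Mb for lamin B1 and to 107 and 71.6 Mb for LC3.

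Chromosome 17 shows what such a chromosome looks like. After the centromeric stretch came a domain of 1.92 Mb that all 4 lists held over nearly its full length (1.92, 1.90, 1.92 and 1.90 Mb), then the 16.3 Mb stretch, then a 5.15 Mb domain of which lamin B1 held 5.09 and 4.36 Mb and LC3 held 2.48 and 5.02 Mb. A stretch of 13.4 Mb followed. The domain after it, 2.00 Mb long, was in LC3 replicate 2 over its whole length and in lamin B1 replicate 1 over 0.558 Mb. A stretch of 1.30 Mb, a 0.7 Mb domain found by both lamin B1 lists (0.699 and 0.688 Mb) and no LC3 list, and a stretch of 4.92 Mb came before the last domain. All 4 lists thus met within 105 kb at each end from the right end of the centromeric stretch to the left end of the 13.4 Mb stretch, and fewer lists met at the ends further on.

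On chromosome X several members were outlined by lamin B1. The stretch at 44012001 to 50025000 was 6.01 Mb long, and each lamin B1 list left 6.04 Mb free around it. LC3 left more free there, with 25.3 Mb (replicate 1) and 7.002 Mb (replicate 2). Between 69270001 and 77424000, 3 stretches of 2.73, 1.87 and 2.19 Mb were separated by domains of lamin B1 replicate 2. Lamin B1 replicate 1 left all of that sequence free as a single piece of 8.25 Mb, and the LC3 lists left it free within pieces of 28.1 and 29.1 Mb. As separate members these 3 therefore depend on lamin B1 replicate 2.

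The protein at the flank was judged at each of the 624 ends, where a list counted as reaching the end if its nearest domain began within 100 kb. Both proteins reached 263 ends (42.1%), LC3 alone reached 198 (31.7%) and lamin B1 alone 163 (26.1%). Lamin B1 replicate 1 reached 63.0% of ends, lamin B1 replicate 2 53.4%, LC3 replicate 1 59.5% and LC3 replicate 2 61.4%. The lists of the 2 proteins therefore overlapped in this measure. All 4 lists met at 155 ends (24.8%), while 163 ends (26.1%) rested on a single list: 53 on lamin B1 replicate 1, 12 on lamin B1 replicate 2, 61 on LC3 replicate 1 and 37 on LC3 replicate 2. Ends with only lamin B1 were reached by both of its replicates in 98 cases, and ends with only LC3 by both of its replicates in 100.

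The replicates of an antibody reached the same end more often than not. Of 426 ends reached by lamin B1 in either replicate, both reached 300 (70.4%), and of 461 reached by LC3, both reached 293 (63.6%). The median distance from an end to the nearest domain, over ends with a domain on that side, was 29.5 and 75 kb for the lamin B1 lists and 4.00 and 27.5 kb for the LC3 lists. LC3 replicate 1 set the outermost position at 238 ends, alone or with another list, more than any other list. It also left 181 ends with no domain of its own within 1 Mb, against 95, 120 and 128 for lamin B1 replicates 1 and 2 and LC3 replicate 2. The gaps under 1 Mb had 224 of 466 ends (48.1%) reached by both proteins, and this difference from the long stretches was not tested.

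Counted by stretch, the commonest arrangement was LC3 alone at an end and both proteins at the other, in 84 of 312 (26.9%). Both proteins stood at both ends of 63 (20.2%), and 53 (17.0%) had lamin B1 alone at an end and both at the other. The 3 remaining arrangements were about equally common: 38 had LC3 alone at both ends, 36 had lamin B1 alone at both ends, and 38 had lamin B1 at an end and LC3 at the other. Stretches between LC3 ends were the shortest, with a median of 1.38 Mb, against 2.70 Mb between lamin B1 ends and 2.02 Mb between ends with both. Among the 36 between lamin B1 ends, 6 held a centromere. The share with both proteins at both ends depends on the distance allowed: it was 4.81% at 20 kb and 44.2% at 500 kb.

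**Figure D3:**
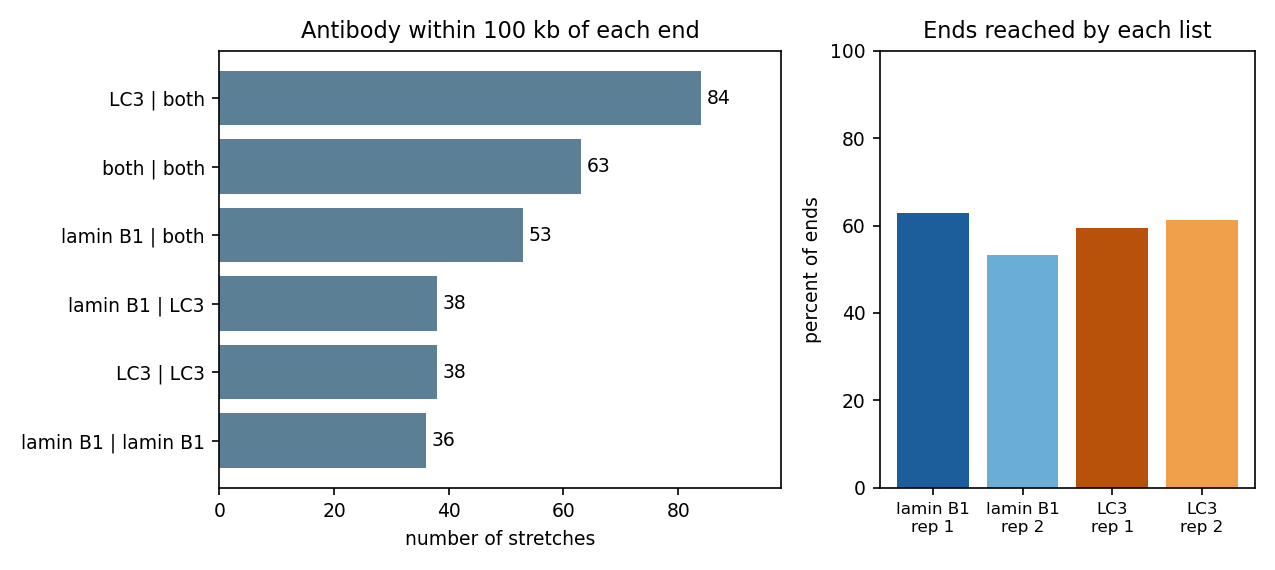
Left, number of domain-free stretches by the proteins found within 100 kb of their 2 ends, where "both" means lamin B1 and LC3. Right, percent of the 624 ends that each list reached, from 53.4% for lamin B1 replicate 2 to 63.0% for lamin B1 replicate 1.

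Among stretches without a centromere, the longest of each arrangement shows the range. LC3 stood at both ends of the 13.8 Mb on chromosome 9, lamin B1 at both ends of the 10.4 Mb on chromosome 1, and lamin B1 and LC3 at opposite ends of the 10.5 Mb on chromosome 19. The longest without a centromere that had both proteins at both ends was on chromosome 12 from 45561001 to 52560000 (6.999 Mb). Only 25 stretches (8.01%) had all 4 lists at both ends. The longest of these without a centromere lay on chromosome 15 from 70840001 to 77775000 (6.94 Mb) and on chromosome 2 from 170247001 to 176064000 (5.82 Mb). At the left end of the chromosome 2 stretch the 4 lists were set back by 39, 15, 17 and 0 kb, and at the right end by 36, 36, 1 and 0 kb.

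Flanks also varied by chromosome. On chromosome X lamin B1 alone reached 21 of 38 ends and LC3 alone 1. On chromosome 16 lamin B1 alone reached 17 of 24 ends and LC3 alone 4. The reverse was found on chromosome 2, where LC3 alone reached 30 of 58 ends and lamin B1 alone 4, and on chromosome 18, with 7 and 2 of 10. With 2 lists for each protein these counts were not tested.

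Long stretches made up 57.2% of all gaps, so many would have a long neighbour in any order of gaps. Whether they followed each other more often than that was not tested. Of 568 joined domains, 177 (31.2%) had a long stretch on both sides. These isolated domains had a median length of 1.31 Mb, close to the 1.35 Mb of the other 391 domains, and only 16 were under 0.5 Mb. All 4 lists had bases in 100 of them (56.5%), with a median length of 2.67 Mb. The same share was not computed for the other joined domains, so it is not shown to be particular to isolated ones. Any base of a list counted, so longer joined domains can hold more lists by construction. In a 13.8 Mb domain on chromosome 5, counted for all 4 lists, LC3 replicate 1 held 2.42 Mb. Lamin B1 lists alone accounted for 29, of which 19 were in both replicates, and LC3 lists alone for 19, of which 11 were in both. Only 18 were in a single list, and these had a median length of 0.558 Mb. The longest isolated domain in lamin B1 lists alone was on chromosome X from 54716001 to 58320000 (3.604 Mb), held over its full length by replicate 2 and over 0.423 Mb by replicate 1. The longest in LC3 lists alone was on chromosome 13 from 42830001 to 44930000 (2.10 Mb), found by both replicates.

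Uninterrupted runs of long stretches and isolated domains numbered 135, and 62 of these were a single stretch. The 14 runs of 5 or more stretches held 95 of the 312. The run with the most members was on chromosome 15 from 51792001 to 91653000, with 10 stretches that made up 70.7% of its 39.9 Mb. Chromosome 14 had 9 in a row from 61032001 to 104547000 (50.3% free), chromosome 13 had 8 (52.1% free), and chromosome 6 also had 8, from 2229001 to 28964000 (68.4% free). A run on the short arm of chromosome 16 from 8043001 to 32032000 had 4 stretches and was 90.3% free. The domains between its members were in lamin B1 lists alone, since the LC3 lists had no domain on that arm. A run of 6 on chromosome 4 from 76458001 to 154604000 was of another kind, with only 10.3% of its 78.1 Mb free.

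Stretches were also measured in lists that had no part in choosing them. These lists share the cells and the genome build, so sequence where reads cannot align is free in all of them. When stretches were taken from the replicate 1 lists, 95.3% of their 1036 Mb was free of domains in the replicate 2 lists, against 41.9% of all spans. When they were taken from the replicate 2 lists, 94.1% of their 1012 Mb was free in the replicate 1 lists, against 40.7% of all spans. The mean of both directions was 94.7 ± 0.874% (SD, n = 2 directions), and 93.8% with centromeric stretches left out. Both directions compare the same 2 pairs of lists, so this SD is not a spread between independent samples. In the first direction 134 of 320 stretches held no base of a domain and 276 were at least 90% free. In the second these counts were 70 and 241 of 314. The wholly free stretches were thus fewer where the stretches came from replicate 2, while the free length was nearly the same. By chromosome, the free share of length was under 90% on X, 4 and 8 in the first direction (77.7%, 82.2% and 87.4%). In the second it was under 90% on X and 21 (89.0% and 78.8%). Every other chromosome with a stretch was above 90% in each direction. Chromosome 17, where the totals differed, was 97.5% and 99.9% free.

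The share of free length was higher in the longest stretches than in the shortest. An equal shift of an edge takes up a larger share of a short stretch. Inner parts were not measured separately here, so the part of edge placement in this difference was not tested. Those of at least 10 Mb were 99.9% and 98.4% free in the other replicate (14 in each direction), and those of 1 to 2 Mb 89.5% and 88.3% free (146 and 145). The classes between were out of order in the first direction, with 96.0% from 2 to 5 Mb and 94.8% from 5 to 10 Mb. In the second direction they were 94.1% and 95.3% free. The longest class includes centromeres, where no list can have a domain, and its 7 and 8 stretches without one were 99.7% and 97.6% free. The count of stretches with no base covered did not follow this order: in the second direction it was 41 of 145 from 1 to 2 Mb and 0 of 14 from 10 Mb, and in the first 61 of 146 and 6 of 14. A total of 22 stretches were more than 50% covered in the other replicate, 20 of which were under 2 Mb. The LC3 list covered more than 50% of 16 of them and the lamin B1 list of 9. Chromosome X had 5, and the longest, on X from 87513001 to 91932000 (4.42 Mb), was free in both replicate 1 lists and wholly inside domains of both replicate 2 lists. On chromosome 4, 3 stretches of 1.37, 1.32 and 1.76 Mb were wholly covered by LC3 replicate 2 and not at all by lamin B1 replicate 2.

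Coverage changed across the ends of the stretches also in the lists that did not define them. At 100 kb inside the ends of the replicate 1 stretches, lamin B1 replicate 2 had a domain at 2.34% of ends and LC3 replicate 2 at 7.97%, while 100 kb outside they had one at 56.9% and 63.1%. At the ends of the replicate 2 stretches the values were 8.12% and 10.7% inside and 69.4% and 62.4% outside for lamin B1 and LC3 replicate 1. Starts and ends are multiples of 3 to 5 kb, which limits how finely an edge can be placed.

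**Figure D4:**
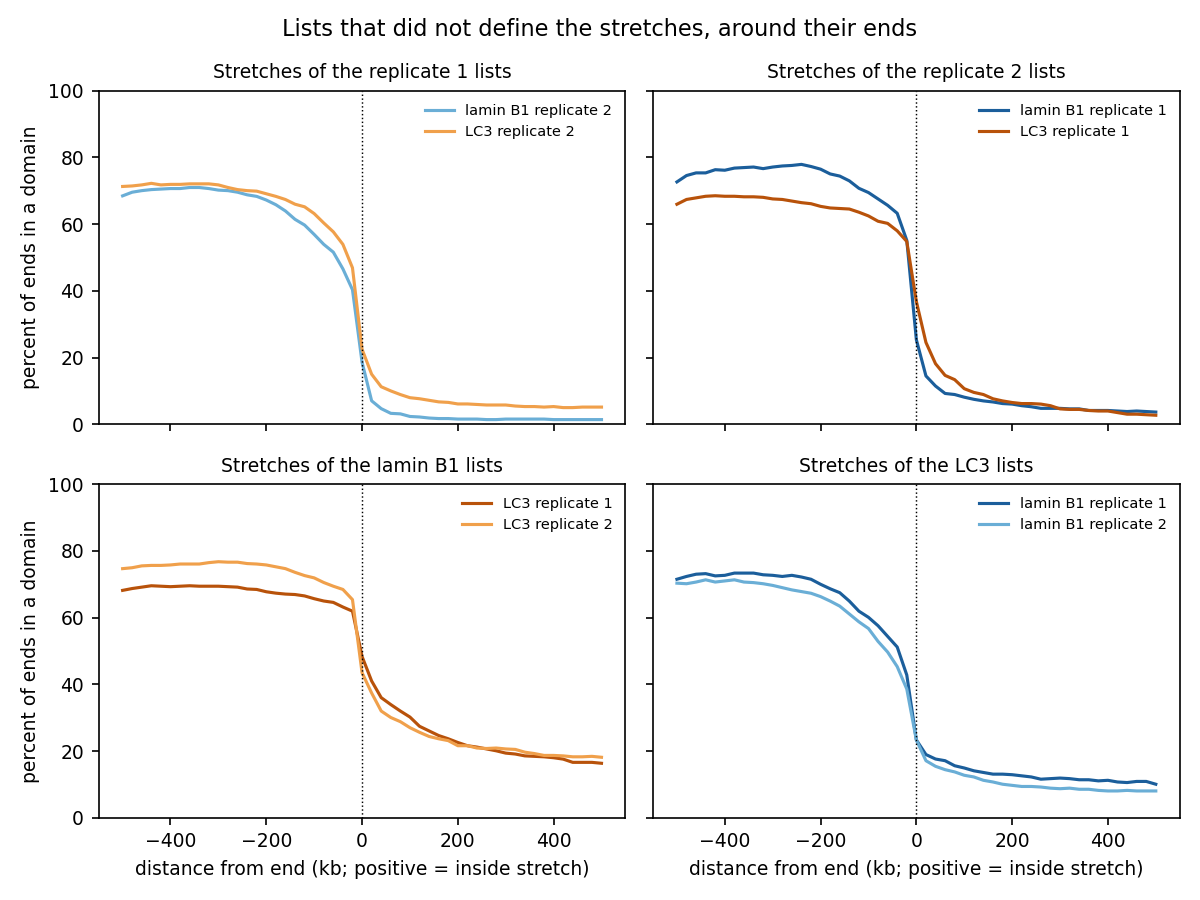
Percent of stretch ends at which a list has a domain, by distance from the end in kb (negative outside, positive inside the stretch), for lists that did not define the stretches. Top, stretches from the lists of a single replicate number, measured in the other number's lists. Bottom, stretches from the lists of a single protein, measured in the other protein's lists. The fall at 0 is steep in all 4 plots, and LC3 remains at 30.2% and 27.0% of ends 100 kb inside lamin B1 stretches.

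The other protein gave a second view from lists that did not choose the stretches. The lamin B1 lists joined alone had 361 long stretches over 1214 Mb, and LC3 replicates 1 and 2 covered 14.5% and 14.8% of that length (mean 14.6 ± 0.170%, SD, n = 2), against 49.4% and 52.3% of all spans. The LC3 lists joined alone had 298 long stretches over 1053 Mb, and lamin B1 replicates 1 and 2 covered 11.6% and 9.90% of it (mean 10.7 ± 1.18%, SD, n = 2), against 49.3% and 48.7% of all spans. LC3 left 78 of the 361 lamin B1 stretches without a base (21.6%), and lamin B1 left 142 of the 298 LC3 stretches without one (47.7%). Each SD varies only the covering list and leaves out the spread of the lists that define the stretches. Without lamin B1 replicate 1 or 2 the first mean was 17.1% or 18.7%. The second mean rests on LC3 replicate 2: with stretches from LC3 replicate 1 alone it was 18.8%.

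The arrival of the other protein removed some stretches and split others. Of the 361 lamin B1 stretches, 268 held exactly 1 of the final members, 20 held 2 or more and 73 held none, 35 of them because LC3 covered them entirely. The longest wholly covered ones were on chromosome 3 from 148584001 to 152144000 (3.56 Mb, 100% in both LC3 lists) and on chromosome 3 from 98224001 to 101696000 (3.47 Mb, 65.1% in LC3 replicate 1 and 100% in replicate 2). Of the 298 LC3 stretches, 249 held 1 member, 21 held 2 or more and 28 held none, 11 of them wholly inside lamin B1 domains. The longest of these 11 was on chromosome 21 from 20883001 to 26403000 (5.52 Mb, 100% in lamin B1 replicate 1 and 65.3% in replicate 2), followed by chromosome 5 from 23055001 to 27255000 (4.20 Mb, 100% in both).

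LC3 coverage of lamin B1 stretches fell with their length. It was 24.6% and 25.2% in the 153 stretches of 1 to 2 Mb, 17.4% and 17.7% in the 152 of 2 to 5 Mb, 12.0% and 12.1% in the 42 of 5 to 10 Mb, and 1.90% and 1.75% in the 14 of at least 10 Mb, for LC3 replicates 1 and 2. Of those 14, 8 held a centromere, and in the other 6 coverage was 0.398% and 0.479%. The order was the same when the outer 300 kb at each end were left out, with 19.8% and 21.9% in the shortest class and 11.2% in both lists from 5 to 10 Mb. The last class has few members, and without it the range was 24.6% to 12.0% in LC3 replicate 1. Lamin B1 coverage of LC3 stretches had no such order: 12.9% and 9.29%, 9.01% and 7.87%, 16.6% and 12.8%, and 9.82% and 10.4%, in order of increasing length. Stretches within a list share their reads and their caller, so these trends were not tested.

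**Figure D5:**
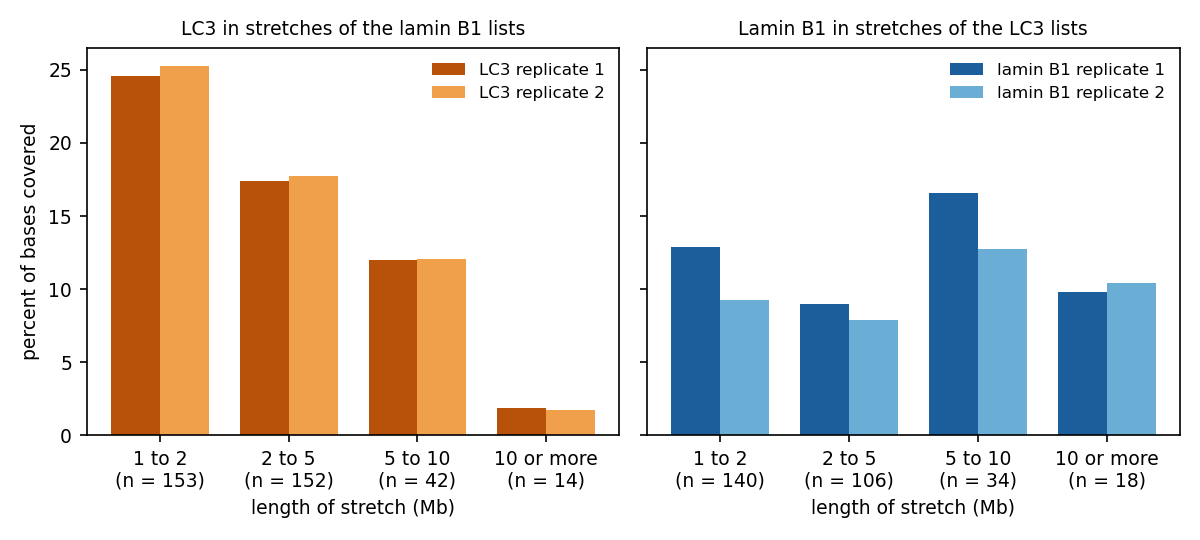
Percent of bases covered by each list of the other protein (vertical axis) in stretches of at least 1 Mb defined by a single protein, by stretch length in Mb, with the number of stretches in each class. In the left plot LC3 coverage falls from about 25% to under 2%, and in the right plot lamin B1 coverage has no order by length.

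In single lists, lamin B1 left more separate long stretches than LC3. The lamin B1 lists also held more domains, 613 and 593 against 437 and 475 for LC3, and so more gaps of any length. Long stretches numbered 376 and 360 in the lamin B1 lists and 296 and 293 in the LC3 lists. The means were 368 ± 11.3 against 294.5 ± 2.12 (SD, n = 2 each). The difference of -73.5 for LC3 minus lamin B1 was larger than the spread within either protein, and the exact two-sided permutation test of 2 lists against 2 gave p = 0.333, the smallest value it can give. In length they came to 1296 and 1265 Mb for lamin B1 and 1191 and 1035 Mb for LC3, a difference of -167 Mb (exact permutation p = 0.333). That difference depends on how tips are treated. LC3 lists lacked a domain to close a stretch on parts of chromosomes 16, 17, 19 and 22, among others. When the tips of the common span were counted as well, the totals were 1321 and 1332 Mb for lamin B1 and 1366 and 1258 Mb for LC3, and the difference was -14.4 Mb (exact permutation p = 1). The autosomes then gave 1264 and 1278 Mb for lamin B1 and 1248 and 1180 Mb for LC3, and chromosome X gave 57.0 and 54.2 Mb against 117 and 78.5 Mb. Without LC3 replicate 2 the first difference was -89.4 Mb.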

How the data were processed

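Lamin B1 and LC3 were measured by ChIP-seq in 2 replicates each, with 2 input samples. The submitters' processing notes name GRCh37/hg19 and the tools Bowtie2, bedtools and bcl2fastq 2.16.0.10. File names point to EDD as the broad-domain caller used by the authors, while its settings, version and read filters are not given here. Each deposited list holds 3 columns (chromosome, start, end) per domain and no score, so depth and counting error are unknown. Positions are multiples of 3, 4, 5 and 3 kb in lamin B1 replicates 1 and 2 and LC3 replicates 1 and 2. Read-level files and input were not analysed here.

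Gaps were found with Python 3.11.15 and NumPy 2.4.6, and figures were drawn with matplotlib 3.10.9. Touching domains were joined, a gap needed 1000000 bases, and a list reached an end within 100 kb. Centromere and heterochromatin placeholders of hg19 were entered from general knowledge of the build and were not read from a genome. The gap search was tested on simulated data. Named regions were the 10 longest without a centromere, all with one, the 5 on each side of the threshold, extreme chromosomes, the longest of each flank arrangement and the longest isolated domains. Members and lists were chosen with earlier results of these data known. Further regions on chromosomes 4, 10, 16, 17 and X, the runs, and the stretches lost in another list were named after their values were seen. Alternatives changed the lists, the minimum length, the chromosomes, centromeres, short domains and the reach.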

Additional observations from a re-analysis of the deposited data

How the results depend on the processing

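Of 105 values under alternatives, 65 were counted as unchanged and 40 as moved. Among the 65 were 18 differences between single lists, which were judged by their sign alone. All of these kept their sign, even the difference in length that shrank from -167 to -14.4 Mb when tips were counted. The other values counted as unchanged if they stayed within the spread of the lists or, for counts, within 1.5 times. The spread came from 2 values and was very small for the median length, so most movement there is slight. For the share free in the other replicate it came from the 2 directions of the same comparison. With a minimum of 500 kb the stretches totalled 1070 Mb with a median of 1.46 Mb and 339 isolated domains. With 2 Mb there were 166 stretches, 778.1 Mb, a median of 3.30 Mb, 58 isolated domains and 96.1% free in the other replicate. Without centromeric stretches the total was 797.7 Mb, the median 2.01 Mb, the share free in the other replicate 93.8% and LC3 coverage of lamin B1 stretches 16.9%. On autosomes the total was 934.9 Mb, the median 2.15 Mb and that LC3 coverage 15.2%. Ignoring joined domains under 500 kb gave a median of 2.28 Mb. Using bases found in both replicates of a protein gave 1078 Mb and a median of 2.28 Mb. With placeholders subtracted, an alternative chosen after seeing the data, the total was 880.2 Mb and the median 2.04 Mb. The share of stretches with both proteins at both ends was 4.81% with a reach of 20 kb and 44.2% with 500 kb. In the inner part of lamin B1 stretches, over 300 kb from both ends, LC3 coverage was 12.0%. All alternatives for coverage by the other protein and for isolated domains, and the count with tips, were also added after seeing the data.

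When the lists were left out singly, the total ranged from 984.5 to 1018 Mb, the median from 2.13 to 2.19 Mb, the share with both proteins at both ends from 15.6% to 24.3% and the share free in the other replicate from 87.6% to 90.3%. That last fall follows from the construction, since a single list then stands for a replicate number. LC3 coverage of lamin B1 stretches ranged from 14.5% to 18.7%, and lamin B1 coverage of LC3 stretches from 9.90% to 18.8%, the highest without LC3 replicate 2. Under the replicate block (unions of lists with equal numbers) the total was 1024 Mb, the median 2.19 Mb, LC3 coverage 17.6% and lamin B1 coverage 14.9%. The differences between single lists were -73.5 stretches and -167 Mb within pairs, as in the unpaired comparison (exact permutation p = 0.5, the smallest that 2 pairs allow). Deviations of same-numbered lists had a correlation of 0.101 across 2853 windows of 1 Mb, and the labels give no shared origin, so the numbers were not taken to pair the samples. The share free in the other replicate cannot be paired, because it already compares replicate numbers. Because depth is unknown, a missing domain may also be a missed one, and GC content, unread bases and genes were not run because no genome of the build was used here.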
